A study of Junonia coenia with 38 samples.

Results

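In late pupal wings of the buckeye butterfly Junonia coenia, 61 of 13282 tested gene models differed between hindwing and forewing, 25 of them higher and 36 lower in the hindwing. The comparison sets 3 whole-hindwing libraries against 3 whole-forewing libraries of the same stage, joined by the replicate number in their names. These are 6 of the 24 wing libraries and of the 38 libraries of the series. The hindwing and forewing groups share everything the labels give except the wing: animals kept at about 27C, whole wing tissue and poly-A selected RNA. No genotype, strain, sex or treatment is given. Hindwings and forewings of the 5th instar larva, the prepupa and the pupa 72 h after pupation, with 3 libraries per wing and stage, entered the same fit. The stage label says 6 days after pupation and the titles say day 7, so the stage is called late pupa here. The labels do not say whether equal numbers mark one animal, or whether wings were pooled. The p-values set the wing difference against how far it varied between pairs of equal number, with this spread shared over the stages. Because the labels leave the animals open, that spread may be partly technical. The models carry no gene names in the deposited table, so each is called by its contig with its first and last position. Wing markers, the tissue label and gene roles could not be checked for the same reason.

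Butterfly forewings and hindwings are homologous appendages built from similar epithelia. In insects the Hox gene Ultrabithorax is active in the hindwing and not in the forewing, and its loss there turns hindwing tissue towards forewing identity. Late in the pupal period the scale cells of both wings harden their cuticle and deposit pigment in a fixed order over the wing, shortly before the adult emerges.

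Library totals ran from 8854090 to 10722831 counts in late hindwings and from 8316939 to 12775785 in late forewings, and the 10 most abundant models held 26.8% to 30.8% of hindwing and 27.7% to 33.6% of forewing counts. Of the 19234 models in the table, 17177 had a count in a late pupal library and 13282 passed the filter on low counts over all 24 wing libraries. Calls are models with an adjusted p below 0.05 (Benjamini-Hochberg over all tested models) in the quasi-likelihood test of edgeR, in which replicate numbers formed a block. Levels are given as CPM, counts scaled to a common library total, and log2 fold changes are hindwing over forewing with their standard error (SE). In whole-wing RNA, more cells of a type and more RNA per cell cannot be told apart.

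The wings were close to each other in most of what they expressed. The called models were 0.459% of those tested, 0.188% higher and 0.271% lower in the hindwing, and 987 models (7.43%) had an unadjusted p below 0.05. The median log2 fold change over all models was 0.00 and its median absolute value 0.14. Among the 10192 models whose mean log2 CPM was at least 1, the 95% interval of the wing difference lay within 2-fold in either direction for 9268 (90.9%). Of the called models, 17 were at least 2-fold higher and 30 at least 2-fold lower in the hindwing. A 4-fold difference was reached by 5 and 12 of them. Without the replicate block 4 models were called (0.0301%), without any one replicate pair between 12 and 23, and in a fit of only the 6 late pupal libraries 422, of which 58 were among the 61.

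**Figure D1:**
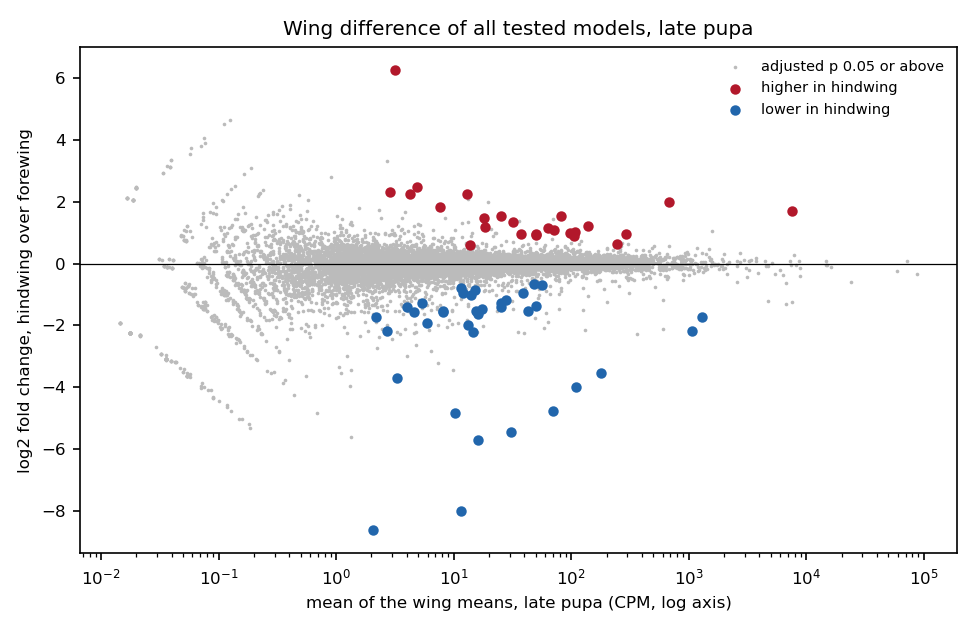
Each point is one of the 13282 tested models, with the mean of the wing means in late pupae (CPM, log axis) across and the fitted log2 fold change of hindwing over forewing upwards. The 25 models called higher in the hindwing (red) reach a log2 fold change of 6.25 and the 36 called lower (blue) reach −8.62, while most of the rest lie near 0. The value of −8.62 rests on forewing replicate 1 alone, with 0 counts in the other late pupal libraries.

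None of the 10 most abundant models was called (edgeR adjusted p from 0.821 to 1). Some leaned one way in every pair, as did 33.4% of all tested models. The leading model, 000001F:4800240-4804348, averaged 77200 CPM ± 3540 in hindwings and 98600 CPM ± 11000 in forewings (SD, n = 3 each), with a 95% interval of the log2 fold change from −1.12 to 0.42. Its hindwing libraries all lay below its forewing libraries, with pair ratios of 0.913, 0.741 and 0.718. The hindwing was also lower in all 3 pairs for 000019F:1917711-1926121 (ratios of 0.809, 0.580 and 0.613) and 000090F:179684-181693 (0.831, 0.897 and 0.806), where the wings overlapped. For 000021F:1183430-1184569, second in abundance, the means were 73200 CPM ± 17600 in hindwings and 70400 CPM ± 22900 in forewings, and the interval ran from −1.16 to 1.34. A 2-fold lower hindwing level lies within the interval of every one of the 10 leading models except 2. The intervals were narrower for these 2, 000105F:377520-379220 (−0.43 to 0.33) and 000292F:228176-245171 (−0.35 to 0.50). These models are named for their abundance, outside the naming rule.

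A model on contig 000025F had the largest hindwing excess. The model 000025F:951192-952313 stood at 7.55, 6.23 and 4.99 CPM in hindwing replicates 1 to 3, against 0, 0.213 and 0 CPM in forewings. Only forewing replicate 2 held any reads of it, 2 counts against 171 in the hindwings together. The ratio of the rates was 89.8 with an exact 95% counting interval of 24.5 to 747 (log2 fold change 6.25 ± 0.45 SE, edgeR adjusted p = 4.30e-05). Without replicate 2 the forewings held 0 counts, and the log2 fold change of 9.25 fitted there is set partly by the prior count. It was the 1 model called in the same direction at all 4 stages. At the earlier stages its hindwing mean was 37.1 CPM in the 5th instar, 41.6 CPM in the prepupa and 7.21 CPM at 72 h after pupation, against forewing means of 0.471, 0.328 and 0.0647 CPM in the same order. None of the tests of the late wing difference against those of the earlier stages passed for it (adjusted p from 0.876 to 0.998).

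A run of 3 neighbours on contig 000001F was higher in late hindwings, the longest run of adjacent called models. The first of them, 000001F:5012251-5016902, ranked 14 in abundance among all models in the late pupa. It stood at 10300, 14100 and 10500 CPM in hindwings, against 2790, 5110 and 3150 CPM in forewings. Every hindwing library lay above every forewing library, and each pair showed a ratio between 2.76 and 3.71 (log2 fold change 1.70 ± 0.23 SE, edgeR adjusted p = 0.00959). The next model, 000001F:5027623-5050549, begins 10720 bases further on and stood at 8.11, 7.74 and 8.90 CPM in hindwings, against 1.28, 2.03 and 1.23 CPM in forewings (2.46 ± 0.34, adjusted p = 0.0131). Its span overlaps that of another model, so its reads may be divided or shared. The third, 000001F:5051182-5052577, stood at 3.94, 9.05 and 1.42 CPM in hindwings, against 0.513, 1.71 and 0.525 CPM in forewings, with overlap between the wings (2.30 ± 0.39, adjusted p = 0.0268). The first member was far more abundant than the others, and the 95% intervals of the 3 log2 fold changes overlapped (1.19 to 2.20, 1.71 to 3.20 and 1.44 to 3.16, in order of position).

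The abundant member of this run was a late transcript. Its hindwing and forewing means were 0.666 and 0.456 CPM in the 5th instar and 4.54 and 2.97 CPM in the prepupa. At 72 h its means were 60.4 CPM ± 98.4 and 46.3 CPM ± 70.7 (SD, n = 3 each), with an SD above the mean in both wings. In the late pupa its means were 11600 and 3680 CPM. At 72 h its fitted paired wing difference was −0.09 ± 0.27 on the log2 scale, opposite in sign to the difference of the means, and the change of the wing difference to the late pupa, 1.79 ± 0.35, passed the test (adjusted p = 0.0414).

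Contig 000059F held a second adjacent pair higher in late hindwings. The model 000059F:1484688-1556634, which spans 71947 bases, stood at 15.5, 21.2 and 27.2 CPM in hindwings, against 2.43, 3.95 and 7.70 CPM in forewings. Its neighbour 000059F:1566791-1574065 stood at 10.2, 11.5 and 13.9 CPM in hindwings, against 2.05, 3.09 and 5.08 CPM in forewings. In both models the wings did not overlap, and replicate 3 was the highest library of its wing and replicate 1 the lowest. The log2 fold changes were 2.24 ± 0.43 and 1.83 ± 0.34 (edgeR adjusted p = 0.0464 and 0.0354). Both leaned the other way in the prepupa, with log2 fold changes of −1.75 ± 0.58 (adjusted p = 0.0383) and −1.03 ± 0.54 (adjusted p = 0.176). Prepupal levels were low. The first averaged 1.55 CPM ± 0.791 in hindwings and 5.51 CPM ± 5.48 in forewings (SD), so its forewing SD was close to the mean. Its neighbour averaged 0.820 CPM ± 0.575 and 1.49 CPM ± 0.714. The change from the prepupa to the late pupa passed the test for both (3.99 ± 0.72 and 2.86 ± 0.64, adjusted p = 0.00241 and 0.00785).

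Among abundant models, 000046F:1811406-1820502 varied more between replicates than between wings. It stood at 2290, 332 and 545 CPM in hindwings, against 682, 69.0 and 142 CPM in forewings. The wings overlapped, since forewing replicate 1 exceeded hindwing replicates 2 and 3, but within pairs the hindwing was 3.35, 4.81 and 3.84 times higher (log2 fold change 1.98 ± 0.35, edgeR adjusted p = 0.0319). Its 72 h means were only 5.43 CPM (hindwings) and 8.11 CPM (forewings).

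The other 5 models named for a high hindwing ratio lay between 6.34 and 136 CPM in each hindwing library. The model 000215F:106873-113782 stood at 136, 119 and 105 CPM in hindwings, against 20.6, 54.5 and 56.6 CPM in forewings, and its excess was widest in pair 1. For 000153F:355820-362815 the values were 46.5, 28.9 and 36.8 CPM in hindwings, against 9.48, 12.8 and 16.1 CPM in forewings. The model 000408F:164414-167959 reached 61.3, 24.9 and 53.7 CPM in hindwings, against 17.6, 14.5 and 20 CPM in forewings. In these 3 models, as in the others of the 5, no forewing library reached the lowest hindwing library. The model 000000F:4000830-4011332 stood at 16.9, 18.9 and 43.9 CPM in hindwings, against 6.28, 7.25 and 14.7 CPM in forewings. For 000175F:18487-19530 the levels were 6.42, 6.34 and 8.31 CPM in hindwings, against 0.897, 1.49 and 2.10 CPM in forewings, and its means at earlier stages did not exceed 0.213 CPM in either wing. The log2 fold changes of the 5 ran from 1.35 to 2.23 (edgeR adjusted p from 0.0101 to 0.0443). Of them, 000153F:355820-362815 was also called higher in the prepupal hindwing (1.69 ± 0.39, adjusted p = 0.00536).

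These hindwing calls rested on having all 3 pairs. Apart from 000025F:951192-952313, each of the 11 models named above as higher in the hindwing lost its call without replicate 1, with adjusted p from 0.0930 to 0.416 and log2 fold changes between 1.01 and 2.37. Without replicate 2 the calls of 000001F:5012251-5016902, 000153F:355820-362815 and 000408F:164414-167959 remained, and without replicate 3 only that of 000153F:355820-362815 did. None changed direction in any alternative run.

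**Figure D2:**
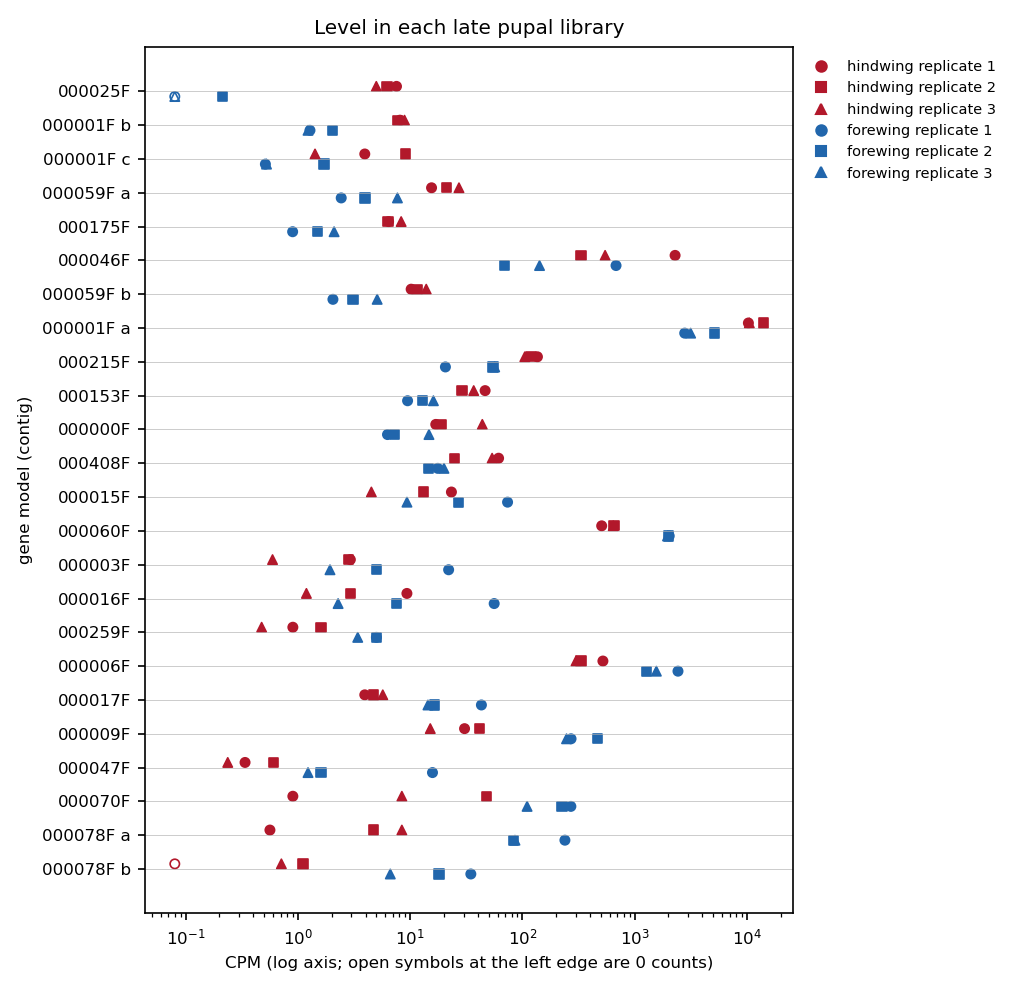
CPM on a log axis in each of the 6 late pupal libraries (hindwing red, forewing blue, symbol by replicate number) for the 24 models named by the rule, from the highest to the lowest log2 fold change. Rows carry contig names, and letters give the order of models on a contig. The wings do not overlap for 19 of the 24, against 6.78% of all tested models. Most of the 24 were chosen for large fold changes in these same libraries, so the count is a description.

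Among the models lower in the hindwing, the median log2 fold change of the 36 calls was −1.57, against 1.21 for the 25 higher. The smallest adjusted p of all belonged to 000009F:2925635-2927721, which stood at 30.5, 41.5 and 15.1 CPM in hindwings, against 271, 465 and 247 CPM in forewings. The hindwing held 0.113, 0.0894 and 0.0611 of the forewing level in pairs 1 to 3 (log2 fold change −3.54 ± 0.19 SE, edgeR adjusted p = 3.48e-06). At all 3 earlier stages it averaged at most 0.316 CPM in either wing, so it is a transcript of the late pupa in both. It was one of the 4 models called without the replicate block (adjusted p = 0.00930), with 000025F:951192-952313, 000017F:2036946-2042642 and 000078F:105509-119301.

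Neighbours on contig 000078F differed most among the models named for a forewing excess. The model 000078F:105509-119301 stood at 0.563, 4.73 and 8.43 CPM in hindwings, against 239, 83.8 and 85.8 CPM in forewings. Its neighbour 000078F:124923-128484, which begins 5621 bases beyond the end of the first, stood at 0, 1.11 and 0.712 CPM in hindwings, against 34.7, 18.0 and 6.65 CPM in forewings. No library of one wing overlapped the other wing in either model, and forewing replicate 1 was the highest and hindwing replicate 1 the lowest library in both. The log2 fold changes were −4.75 ± 0.59 and −4.84 ± 0.58 (edgeR adjusted p = 0.00578 and 0.00614). Both calls remained without any single pair. The values were −3.73 without replicate 1 and −5.70 without replicate 3 for the first, and −3.71 without replicate 1 and −5.61 without replicate 2 for its neighbour.

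The first of these neighbours was expressed in both wings earlier. Its hindwing and forewing means were 73.1 and 60.0 CPM in the 5th instar, 51.5 and 24.3 CPM in the prepupa and 23.7 and 17.8 CPM at 72 h, with no call at these stages. In the late pupa the forewing mean was 136 CPM ± 89.2 and the hindwing mean 4.57 CPM ± 3.94. The change of its wing difference passed the test against each earlier stage, with values of −5.02 ± 0.74 against the 5th instar, −5.86 ± 0.77 against the prepupa and −4.97 ± 0.79 against 72 h (adjusted p = 0.0155, 0.000253 and 0.0147). The neighbour was called higher in the prepupal hindwing (1.47 ± 0.50, adjusted p = 0.0457), the opposite of its late difference.

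A pair of abundant models was lower in late hindwings. The model 000060F:1221882-1245189, which ranked 76 in abundance, stood at 508, 654 and 644 CPM in hindwings, against 2030, 2000 and 1960 CPM in forewings. The forewing replicates had an SD of 38.8 CPM, and the hindwing held 0.250, 0.327 and 0.329 of the forewing level (log2 fold change −1.74 ± 0.15, edgeR adjusted p = 0.000248). Its call remained without any single pair, and its wing difference changed against all 3 earlier stages (adjusted p from 0.000183 to 0.0229). The model 000006F:1578337-1580232 stood at 521, 332 and 300 CPM in hindwings, against 2430, 1280 and 1560 CPM in forewings (−2.18 ± 0.35, adjusted p = 0.0172), without overlap. It was lower in prepupal hindwings too (−1.36 ± 0.37, adjusted p = 0.0150), with a mean of 13.7 CPM, against 34.2 CPM in prepupal forewings.

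The late hindwing also held little of 000070F:937086-939412, at 0.901, 48.0 and 8.43 CPM, against 270, 225 and 110 CPM in forewings. Its hindwing replicates differed from each other by a wider ratio than any of the forewing replicates did (log2 fold change −3.98 ± 0.68, edgeR adjusted p = 0.0230). The model 000017F:2036946-2042642 stood at 3.94, 4.73 and 5.70 CPM in hindwings, against 43.1, 16.5 and 14.4 CPM in forewings (−2.20 ± 0.29, adjusted p = 0.00614). Larval and prepupal wings had far more of it, with hindwing means of 189 and 275 CPM and forewing means of 134 and 130 CPM, and the prepupal hindwing was the higher wing (1.07 ± 0.23, adjusted p = 0.00325). A low forewing-biased model, 000259F:296788-301306, stood at 0.901, 1.61 and 0.475 CPM in late hindwings, against 5.00, 5.01 and 3.41 CPM in forewings (−2.18 ± 0.34, adjusted p = 0.0171). It was called lower in the hindwing in the 5th instar and the prepupa as well (−2.05 ± 0.27 and −1.34 ± 0.40), and at 72 h its value was −2.05 ± 0.55 (adjusted p = 0.0741).

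In another 3 named models lower in the hindwing the level followed the replicate number. The model 000016F:2111867-2134298 stood at 9.35, 2.92 and 1.19 CPM in hindwings, against 56.0, 7.57 and 2.28 CPM in forewings. For 000003F:2472539-2482359 the levels were 2.93, 2.82 and 0.594 CPM in hindwings, against 22.0, 5.01 and 1.93 CPM in forewings. The model 000015F:1865977-1866804 stood at 23.3, 13.2 and 4.51 CPM in hindwings, against 73.7, 27.0 and 9.36 CPM in forewings. In these 3 models replicate 1 was the highest and replicate 3 the lowest library of both wings, and hindwing replicate 1 lay above forewing replicate 3. The model 000047F:2240700-2247596, named like 000015F:1865977-1866804 for an opposite call at an earlier stage, did not follow the number in both wings. It stood at 0.338, 0.603 and 0.237 CPM in hindwings, against 15.8, 1.60 and 1.23 CPM in forewings, without overlap. The log2 fold changes of these 4 models were −1.99 ± 0.23, −1.91 ± 0.35, −1.29 ± 0.21 and −3.71 ± 0.54 in the order given (edgeR adjusted p = 0.00362, 0.0351, 0.0177 and 0.0114).

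Replicate 1 carried much of the size of several forewing excesses. Without it the log2 fold change was −1.24 for 000016F:2111867-2134298, −1.10 for 000003F:2472539-2482359, −1.72 for 000047F:2240700-2247596 and −1.57 for 000017F:2036946-2042642, and only the last kept its call. It was −2.88 for 000070F:937086-939412, which stayed called. Without replicate 2 the values were −2.60, −4.79 and −5.31 for 000003F:2472539-2482359, 000047F:2240700-2247596 and 000070F:937086-939412. Leaving out replicate 3 ended the calls of 000003F:2472539-2482359 and 000070F:937086-939412. The calls of 000015F:1865977-1866804, 000259F:296788-301306 and 000006F:1578337-1580232 ended without any one of the 3 pairs. In all, 7 of the 61 calls remained whichever pair was left out, and 31 ended in each of those 3 fits. Beside the 6 already named (000025F:951192-952313, 000009F:2925635-2927721, 000017F:2036946-2042642, 000060F:1221882-1245189 and both models of 000078F), the seventh was 000206F:87233-108065, chosen here after its values were seen.

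In 4 further calls a single library held nearly all reads; they fall outside the naming rule and were chosen after their values were seen. Forewing replicate 1 stood at 179 CPM for 000131F:967366-971648, 93.8 CPM for 000192F:451086-454743, 68.3 CPM for 000192F:430473-432807 and 12.3 CPM for 000131F:943455-955088. The other 5 libraries lay at or under 2.28 CPM for each of them, and forewing replicate 1 held between 97.0% and 100% of the CPM summed over the 6 libraries. They form adjacent pairs on contigs 000131F and 000192F. The fitted log2 fold changes from −5.44 to −8.62 thus describe that library against its pair and not the forewing as a group. For 000131F:943455-955088 the hindwings and forewing replicates 2 and 3 held 0 counts, against 96 counts in forewing replicate 1. One library held over 50% of the summed CPM in 14 of the 61 calls, forewing replicate 1 in 11 of them.

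Forewing replicate 1 stood out among the forewing-biased models as a group. It was the highest forewing library for 23 of the 36 models called lower in the hindwing (63.9%), against 34.6% of the 10192 better expressed models given above and 6 of the 25 called higher. Hindwing replicate 1 was the highest hindwing library for 17 of the 36 (47.2%), against 33.2% of those models. The calls were made from these same levels, so the shares describe the list and the contrast was not tested. With pair 1 left out 12 models were called, 11 of them among the 61.

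**Figure D3:**
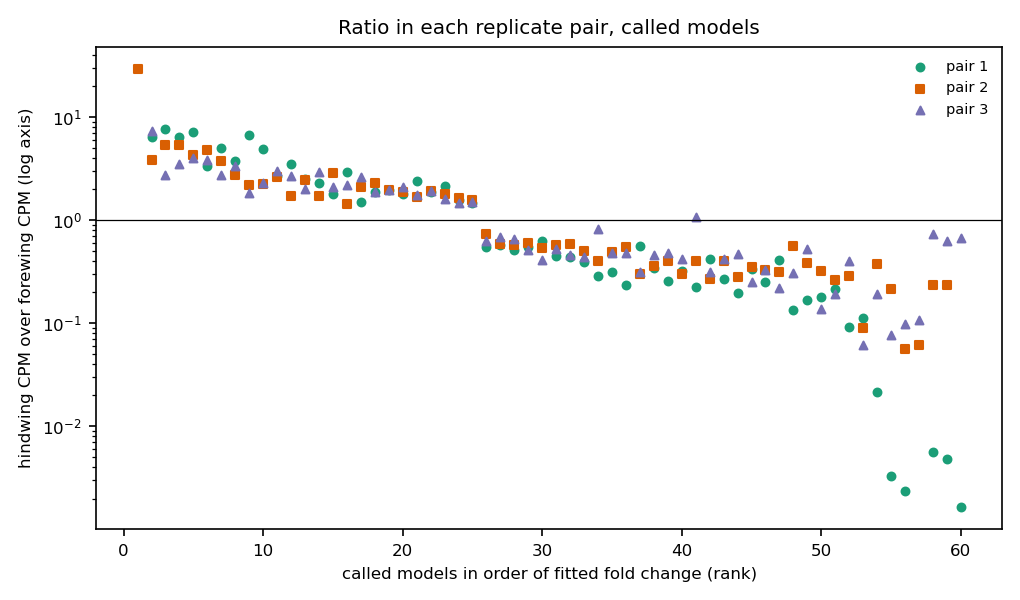
Hindwing CPM over forewing CPM (log axis) in each replicate pair for the 61 called models, in order of fitted fold change. Ratios with 0 counts in a wing are not drawn, so pair 1 shows 58 models and pairs 2 and 3 show 59 each; at the right end the ratios of pair 1 lie below those of the other pairs for most models.

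Within pairs, 59 of the 61 called models had one direction in all 3 numbers, against 33.4% of all tested models. The CPM of the wings did not overlap for 32, 14 higher and 18 lower in the hindwing, against 6.78% of all tested models (3.03% higher and 3.76% lower). The test itself uses these values, and nothing further is read from the counts. In 34 of the 61 the highest library of a wing exceeded the lowest library of the same wing by a larger ratio than the fitted wing difference, as it did in 96.2% of all tested models. The deviations of paired libraries from their wing's mean moved together across models, with r of 0.730, 0.790 and 0.832 for numbers 1 to 3. Values for unequal numbers were negative. Deviations from a mean of 3 libraries cancel out, so these negative values follow from the positive ones and add nothing. Models are not independent replicates, so no p is given.

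The naming rule left out 37 called models. The 13 higher in the hindwing had log2 fold changes from 0.59 to 1.21 and mean levels from 13.8 to 296 CPM. As examples chosen after their values were seen, 000053F:653778-664686 stood at 80.1, 81.1 and 99.0 CPM in hindwings, against 44.7, 28.3 and 46.8 CPM in forewings (1.14 ± 0.13, edgeR adjusted p = 0.00614). The model 000160F:633951-635699, which overlaps another, stood at 139, 34.6 and 214 CPM in hindwings, against 74.6, 15.1 and 114 CPM in forewings, a difference that was plain only within pairs (0.98 ± 0.12, adjusted p = 0.0114). The 24 lower in the hindwing had log2 fold changes between −0.66 and −8.62, the 4 models resting on forewing replicate 1 included, and mean levels from 2.05 to 56.4 CPM, and 6 of them differed by less than 2-fold. Among them 000095F:1229644-1230741 stood at 15.4, 17.7 and 17.9 CPM in hindwings, against 39.1, 35.5 and 40.9 CPM in forewings (−1.18 ± 0.18, adjusted p = 0.0123), with replicates close together in both wings. The model 000206F:87233-108065, whose span overlaps another model, stood at 18.9, 35.0 and 26.6 CPM in hindwings, against 42.2, 61.0 and 50.7 CPM in forewings (−0.96 ± 0.11, adjusted p = 0.00362).

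Over development, the called models were more often late transcripts than the tested models were. The late pupa was the stage with the highest mean over the wings for 34 of the 61 (55.7%), 17 in each direction, against 25% of all tested models. The prepupa was the highest stage for 16 (26.2%, against 19.2%), 72 h for 6 and the 5th instar for 5, all of these 5 lower in the late hindwing. Called models had a median level of 18.6 CPM, against 9.73 CPM over all tested, and a median span of 7275 bases, against 6181. A test on counts reaches models with more reads more easily, so these shares are a description.

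The late pupal calls were set beside those of the other stages, where a missing call is no test of a difference. The same fit called 0.986% of models between the wings in the 5th instar (0.497% higher and 0.489% lower in the hindwing), 30.9% in the prepupa (14.6% and 16.3%) and 2.70% at 72 h (1.54% and 1.15%). Of the 61, 37 were called at no earlier stage. By the shares just given, most of all tested models were called at no earlier stage either, so this count is a description. In the prepupa 20 of the 61 were called, 7 in the same direction and 13 in the opposite one. These 20 are 32.8% of the late list and 0.487% of the prepupal list, and 32.8% is close to the share of all models called in the prepupa. In the 5th instar 4 were called in the same direction and 3 in the opposite one, and at 72 h 5 and 2. These 7 at each stage were 11.5% of the late calls, and 5.34% of the 5th instar and 1.96% of the 72 h list.

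The test of the change itself was passed by 2471 models against the prepupa (18.6% of those tested, 10.6% upwards and 8% downwards), 94 against 72 h (0.708%, 0.248% upwards and 0.459% downwards) and 29 against the 5th instar (0.218%, 0.0828% upwards and 0.136% downwards). With DESeq2 size factors, 1641 models passed upwards and 898 downwards against the prepupa, in place of 1408 and 1063. The split by direction thus depended on the scaling. Of the 2471, the absolute log2 fold change was smaller in the late pupa for 2313, and 42 were among the 61. Against 72 h it was smaller in the late pupa for 76 of 94, and 10 of the 94 were among the 61. Against the 5th instar it was smaller for 18 of 29, and 11 were among the 61. Without the replicate block the counts of changed models were 396, 0 and 0 in the same order, with 291 and 341 models at an unadjusted p below 0.05 for the last 2.

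A group of 15 models was called in late pupae in one direction and at an earlier stage in the other. For 13 of them an opposite call was in the prepupa, where 14.6% of all tested models were called higher and 16.3% lower. Some opposite calls would thus arise without any relation between the stages, and the count is a description. By the naming rule the leading models of the group were 000059F:1484688-1556634, 000078F:124923-128484 and 000047F:2240700-2247596 against the prepupa, and 000015F:1865977-1866804 against 72 h. The model 000047F:2240700-2247596 averaged 33.5 CPM ± 2.31 in prepupal hindwings and 13.5 CPM ± 4.29 in prepupal forewings (1.31 ± 0.25, edgeR adjusted p = 0.00151), and in the late pupa 0.393 CPM ± 0.189 in hindwings and 6.20 CPM ± 8.29 in forewings (SD, n = 3 each). The model 000015F:1865977-1866804 averaged 250 CPM ± 239 in hindwings and 96.3 CPM ± 87.7 in forewings at 72 h (1.42 ± 0.21, adjusted p = 0.00340), and in the late pupa 13.7 CPM ± 9.41 in hindwings and 36.7 CPM ± 33.2 in forewings. Its change between these stages was −2.71 ± 0.29 (adjusted p = 0.00212). Among those outside the rule, chosen after their values were seen, 000055F:1724848-1725891 and 000206F:87233-108065 were higher in the hindwing in both the 5th instar and the prepupa and lower in the late pupa. The model 000064F:661706-664685 was lower in the hindwing at both those stages (−2.81 and −0.93) and higher in the late pupa (1.01 ± 0.16, adjusted p = 0.0161).

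**Figure D4:**
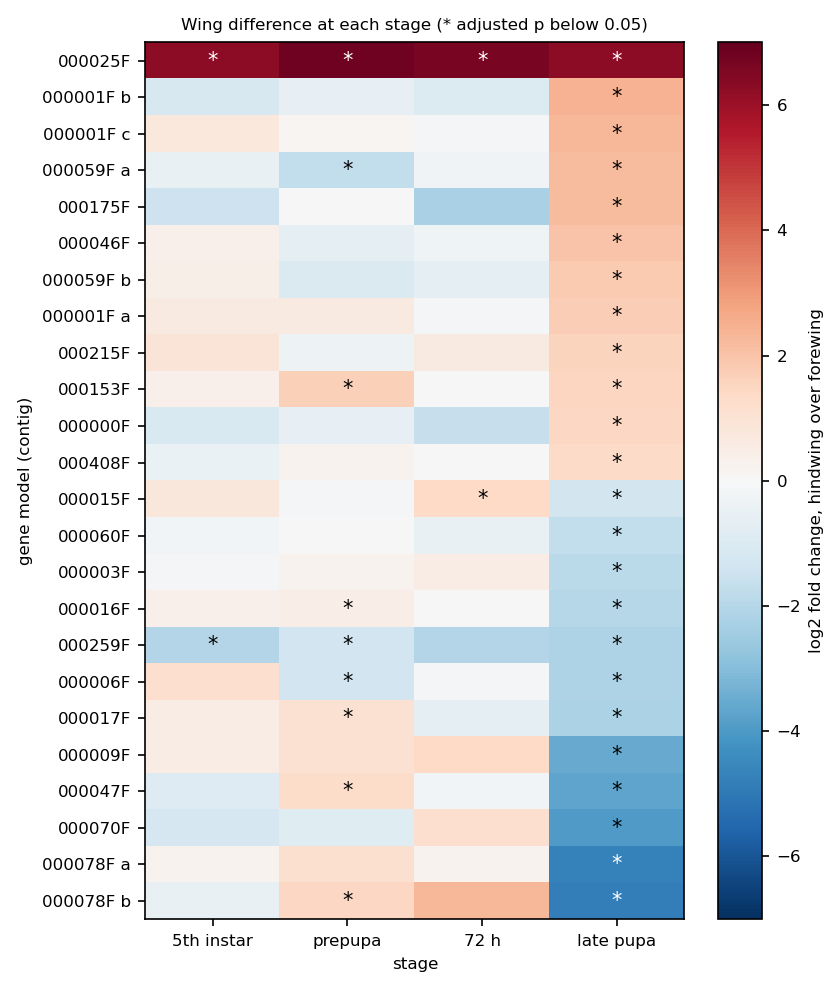
Fitted log2 fold change of hindwing over forewing at each stage for the 24 named models (red higher, blue lower in the hindwing), with an asterisk where the adjusted p was below 0.05. The top row is called at all 4 stages, and most other rows are called in the late pupa and at no or 1 earlier stage.

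Called models lay next to each other on contigs in places. Of the 61, 13 (21.3%) had a called model as the nearest tested neighbour on either side, 11 of them with the same direction, while 0.866% of all tested models had a called neighbour. The 11 are the run of 3 on 000001F and the adjacent pairs on 000059F, 000078F, 000131F and 000192F. The last 2 pairs rest on forewing replicate 1, as given above. Spans of 11 called models (18.0%) overlapped that of another model, against 19.6% of tested models, and with such models left out 47 of the 61 were called.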

How the data were processed

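Counts of reads per gene model, whole numbers without normalization, were deposited by the authors in one table of 24 wing libraries, and all its count columns were used. Per the submitters' processing notes TopHat, bedtools and DESeq2 were used, with no role or version. No build, annotation or strand setting is stated in the labels or the file. Columns headed d3 were taken as the 72 h stage. Models were filtered with filterByExpr (minimum count 10, minimum total 15) and scaled by TMM in edgeR 4.0.16 (R 4.3.3). A two-sided quasi-likelihood test (glmQLFit, glmQLFTest) used one model of the 24 libraries, with a block for each stage and replicate number and a hindwing effect per stage. Sharing the spread over stages was chosen because 6 libraries alone leave few residual degrees of freedom. The block follows the replicate numbers: deviations of paired late libraries from their wing's mean correlated at r of 0.730 to 0.832 over 10192 models. An SE was obtained by dividing the size of a log2 fold change by the root of its F statistic, which is unreliable for low counts with changes near 0. Replicates differed far beyond sampling noise (chi-square per degree of freedom from 25.9 to 47.8). Counting intervals are exact (95%) and cover counting error only, since PCR copies are not independent molecules.

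The naming rule took, from called models whose mean log2 CPM was at least 1 and which had one direction in all pairs, the 10 highest and 10 lowest fold changes. To these it added the 4 most abundant called models, models called alike at all 4 stages, up to 4 with an opposite call earlier, and up to 3 of the longest runs of at least 3 neighbours. The comparison, rule and tests were chosen with earlier results of these data known. Gene lists and markers could not be used without gene names, and no sequence was available. The scripts were tested on simulated data. Alternatives were the fit without the block, DESeq2 1.42.0 (size factors, Wald test), other filters, fewer stages, each pair left out and overlapping models left out.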

Additional observations from a re-analysis of the deposited data

Results flagged for a closer look

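The wing difference of the late pupa differed from that of an earlier stage, by the test of the change itself in the same fit (edgeR adjusted p below 0.05), for 16 of the 24 named models. These were chosen by their late fold changes, and some for an opposite earlier call, so the count is a description; over all tested models the change passed for 18.6% against the prepupa, 0.708% against 72 h and 0.218% against the 5th instar. Values are changes of the log2 fold change of hindwing over forewing, late pupa minus the earlier stage.

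Against all 3 earlier stages, 000078F:105509-119301 changed by −5.02 (5th instar), −5.86 (prepupa) and −4.97 (72 h), 000016F:2111867-2134298 by −2.35, −2.47 and −2.03, and 000060F:1221882-1245189 by −1.56, −1.70 and −1.21, in the same order. The model 000017F:2036946-2042642 changed by −2.69 against the 5th instar and −3.27 against the prepupa, and 000015F:1865977-1866804 by −1.21 against the prepupa and −2.71 against 72 h. For 000001F:5012251-5016902 the test passed only against 72 h, with a change of 1.79. Its change against the prepupa was 1.08 (edgeR adjusted p = 0.0757).

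The other 10 passed the test of the change against the prepupa alone. Towards the hindwing these were 000059F:1484688-1556634 (3.99), 000059F:1566791-1574065 (2.86), 000000F:4000830-4011332 (2.06), 000215F:106873-113782 (1.86) and 000408F:164414-167959 (1.12). Towards the forewing they were 000078F:124923-128484 (−6.31), 000047F:2240700-2247596 (−5.02), 000009F:2925635-2927721 (−4.61), 000070F:937086-939412 (−3.15) and 000003F:2472539-2482359 (−2.14). For 000009F:2925635-2927721 the earlier levels were near 0 in both wings, so its earlier fold changes rest on few counts. A missed threshold against the other stages does not show that the change was absent there. For 000078F:124923-128484 the change against 72 h was −7.17 (edgeR adjusted p = 0.0599), larger in size than that against the prepupa.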

How the results depend on the processing

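No called model took the opposite sign in any of the 13 alternatives, while the number of calls moved; 000131F:943455-955088 has 0 late counts, and so no direction, without replicate 1. The late pupal count of 61 became 4 without the replicate block, 98 with the DESeq2 Wald test, 97 without the filter on low counts, 422 with only the late pupal libraries and 12 to 23 without one replicate pair; leaving out a pair drops samples, and the cause of the other shifts was not tested. Without both the block and the other stages edgeR called 0, with 276 models at an unadjusted p below 0.05. Late pupal pair differences had a median SD of 0.184 (log2 scale), against 0.127 (5th instar), 0.254 (prepupa) and 0.273 (72 h). Without both 72 h libraries numbered 3, an alternative chosen after seeing the data, the count was 117, and without the prepupal libraries, also chosen then, 42. The count of changes against 72 h, 94, became 0 without the block (291 unadjusted), 201 with the Wald test, 24 with only the stages compared, 606 without the 72 h libraries numbered 3, and 26 to 34 without a pair. Against the 5th instar, 29 became 0 without the block (341 unadjusted), 164 with the Wald test, 90 without the filter, 364 with only the stages compared, 135 without those 72 h libraries, and 17 to 19 without a pair. Against the prepupa, 2471 became 396 without the block and 1742 to 1816 without a pair. Of the 24 named models, 20 lost the call without the block, 7 without the prepupal libraries (000001F:5051182-5052577, 000175F:18487-19530, 000046F:1811406-1820502, 000215F:106873-113782, 000003F:2472539-2482359, 000006F:1578337-1580232 and 000070F:937086-939412), 2 with the Wald test (000175F:18487-19530 and 000046F:1811406-1820502) and 2 without overlapping models (000059F:1484688-1556634 and 000175F:18487-19530).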
